A study of Mus musculus with 48 samples.

Results

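Most known A-to-I sites in 3′ untranslated regions (3′ UTRs) lie in crowded runs, and the sites described here are the exceptions. A site was taken as sparse when the deposited tables annotate it as 3′ UTR, when it had more than 100 reads in at least 1 of the 48 libraries, and when at most 2 other listed 3′ UTR positions lay within 50 bases of it on the same chromosome and strand. Of 48715 listed positions, 7232 are 3′ UTR positions, and 129 of these were sparse, in 71 genes. The remaining 3′ UTR positions with that coverage, 4143 in number, are called dense. Among the sparse sites 29 had no neighbour within 50 bases, 51 had 1 and 49 had 2, and 44 of the 71 genes also hold dense sites.

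Editing was measured by mmPCR-seq, in which stretches of cDNA around known sites are amplified by pooled primers on a microfluidic chip and then sequenced. C57BL/6 mice aged 12 weeks gave 8 tissues: heart, liver, kidney, small intestine, brain, thymus, spleen and bone marrow (BM), with 3 libraries per tissue and genotype. The control genotype was Adar1+/+ Ifih1-/- (WT here), and the other was Adar1E861A/E861A Ifih1-/- (E861A), whose ADAR1 protein is made but cannot deaminate. Both genotypes therefore lack MDA5, the cytosolic sensor of double-stranded RNA encoded by Ifih1, so editing was measured in animals without that sensor throughout. The labels name no change of Adar2 in either group, the tissues were taken whole, and the Adar1 genotype itself cannot be read from these tables. An editing level averages over the cell types of a tissue, so a change in cell makeup and a change within cells cannot be told apart. The labels do not say whether libraries of the same number in different tissues came from 1 animal, and p-values measure the spread between these libraries.

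ADAR enzymes convert adenosine to inosine in double-stranded RNA, and sequencing reports inosine as G. The editing level of a site is therefore given here as the percentage of reads with G among those covering a genomic A. Long duplexes, such as those formed by inverted repeats in a 3′ UTR, are typically edited at many adenosines, whereas shorter or imperfect duplexes can be edited at single, preferred adenosines. The neighbouring bases matter for ADAR enzymes: a G immediately 5′ of the adenosine is disfavoured and a G immediately 3′ is favoured. ADAR1 is made in most tissues, and the related ADAR2 is most abundant in the brain.

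The sequences below are those around the sites on which the results turn. Each shows 21 bases of the transcript strand in DNA letters, 5′ to 3′, from the mm9 (NCBIM37) genome, with the edited adenosine in the middle and in capitals. Each name carries the number of bases, along the genome, between the site and the nearest annotated stop codon of GENCODE M1. The windows of Rhoa +312, Parg and Golga2 share a T before and a G after the site.
Rhoa +312, chr9:108239451-108239471, plus strand: tttgtgaattAggctgtaact
Parg +308, chr14:33109801-33109821, plus strand: ctcagcttctAgatctttctc
Golga2 +133, chr2:32162260-32162280, plus strand: ctggggaagtAgctcagttgg
Nrp1 +1362, chr8:131028063-131028083, plus strand: aactggttaaAgtgacagtat
Igf2 +546, chr7:149839168-149839188, minus strand: tgcaggtggcAtgtcattgct
Igf2 +559, chr7:149839155-149839175, minus strand: tcattgcttcAgtgccctctc
2900026A02Rik +4926, chr5:113516506-113516526, minus strand: gagtagggatAagggctgctc
Cybasc3 +93, chr19:10663118-10663138, plus strand: tggtttcagcAacagacttct
Glt8d2 +573, chr10:82113514-82113534, minus strand: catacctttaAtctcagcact
Rhoa +451, chr9:108239590-108239610, plus strand: agttttttgaAatcttgctca
The last window is shown as a contrast, because it is a sparse site of the same Rhoa 3′ UTR that was hardly edited. All of these sites lie in annotated 3′ UTR exons. The 21 bases of Rhoa +312 occur at 3 other places of the genome with A at the site and at none with G. Those of Golga2 +133 occur at 2 other places with A and 1 with G, and those of Glt8d2 +573 at 136 with A and 13 with G, so reads of copies could enter the levels of these last sites; this was not tested. The windows of Parg, Nrp1 +1362, both Igf2 sites, 2900026A02Rik and Cybasc3 have no such copy.

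Sparse sites were read deeply but unevenly. The best read library of a sparse site had a median of 3064 reads and a maximum of 13075. Between 83 and 127 sparse sites had more than 100 reads per library, apart from BM WT replicate 2, which had 44 and the lowest sum of reads over all listed positions (1861831, against 4878116 to 11394093 in the other libraries). Some WT libraries lay close to E861A libraries at the sites that are not sparse 3′ UTR sites. Over those edited in WT of the tissue, the median level was 0.444% in spleen WT replicate 3, 0.167% in thymus WT replicate 3, 0.169 and 0.101% in small intestine WT replicates 2 and 3, and 0.126 and 0.223% in heart WT replicates 2 and 3. The same median in the 21 E861A libraries outside the brain was 0.0586 to 0.268%. Brain WT replicate 1 had 1.87%, below the 3 brain E861A libraries at 2.61 to 3.06%. Counts of calls without each replicate, and outside the brain without thymus, small intestine and heart, are therefore given in the closing section. Libraries with at most 100 reads at a site were treated as missing there. Because PCR products were sequenced with no molecular identifiers, intervals on shares cover counting error only.

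Editing above 1% at sparse sites was concentrated in few positions. No library put 69 of the 129 sites above 1%, and 25 sites passed 1% in a single library. Only 11 sites passed it in 6 or more libraries: 1 each in Rhoa, Dcp2, Parg, Golga2, Glt8d2 and 2900026A02Rik, 2 in Igf2 and 3 in Nrp1. In WT, 6.72% of 2649 site and library values were above 1%, and 16 sites in 12 genes held 80.9% of those. In E861A, 52 of 2767 values were above 1% (1.88%), of which 20 were among the 337 values of the brain and 32 among the 2430 values of the other tissues. Above 10%, there were 64 WT values and 8 E861A values, 1 of them outside the brain. The median over all sparse site values was 0.0985% in WT and 0.102% in E861A outside the brain.

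**Figure D1:**
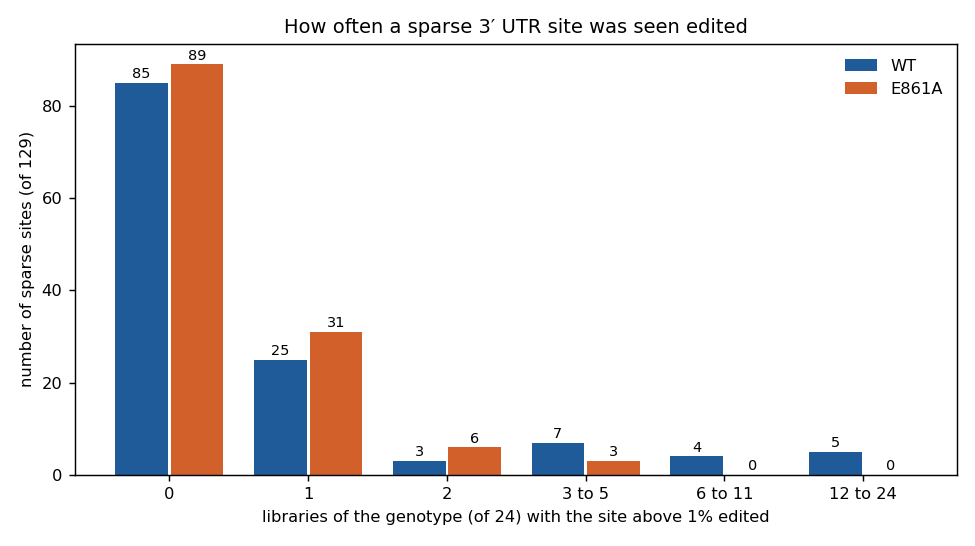
Number of sparse 3′ UTR sites (vertical axis, of 129) by the number of libraries of a genotype, of 24, in which the site was above 1% edited (horizontal axis), for WT (blue) and E861A (orange). Sites seen in 1 library are similar in number in both genotypes (25 and 31), and 9 sites passed 1% in 6 or more WT libraries and 0 in 6 or more E861A libraries.

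Rhoa encodes a small GTPase that controls the actin cytoskeleton, and its site 312 bases after the stop codon was the most widely edited of the sparse sites. All 48 libraries read it with more than 100 reads. In BM the WT libraries had levels of 42.4, 49.9 and 35.3%, and the E861A libraries had 0.324, 0.157 and 0.160%. In spleen the WT values were 42.8, 45.4 and 39.8%, against 0.443, 0.158 and 0.172% in E861A. In thymus they were 28.1, 35.5 and 20.8%, against 0.338, 0.318 and 0.205%. The lowest of these 9 WT values, 20.8%, lay above the highest WT value of the 5 other tissues, 15.0%. WT means elsewhere were 9.46% ± 7.76 (SD, n = 3) in small intestine, 6.73% ± 2.85 in liver, 4.22% ± 2.23 in kidney, 3.34% ± 1.87 in heart and 3.05% ± 2.13 in brain, and these 5 tissues overlapped. Small intestine WT replicate 2 had 0.594%, while the other WT libraries of that tissue had 12.8 and 15.0%. The highest value in any of the 24 E861A libraries was 0.443%. No tissue had an E861A library that reached the lowest WT library. The second sparse site of Rhoa, 451 bases after the stop codon, had WT means of 0.851% ± 0.698 in spleen, 0.904% ± 0.361 in thymus and 0.596% ± 0.285 in BM, and did not reach a group mean of 1%.

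Nrp1 encodes neuropilin-1, a co-receptor for semaphorins and VEGF, and 3 sparse sites lie within 6 bases of its 3′ UTR. The middle site, Nrp1 +1362, was edited in every tissue of WT mice, but with a different order of tissues from Rhoa. Kidney WT libraries had 28.6, 26.8 and 14.0%, and the E861A kidney libraries had 0, 0.181 and 0%. Heart had 23.6, 21.5 and 8.37% in WT and 0.315, 0.252 and 0.337% in E861A. Spleen WT values were close together, at 14.7, 15.2 and 17.0%, against 0.216, 0 and 0.118% in E861A. Liver WT libraries spread from 4.36 to 25.6%, and the brain (mean 4.04% ± 1.20) and thymus (mean 4.04% ± 3.27) were lower than kidney in every library. In small intestine 1 WT library had 14.4% and the other WT libraries had 0.219 and 0%, within the range of E861A. The adenosine 2 bases before it, Nrp1 +1360, reached 2.99, 2.12 and 1.14% in WT kidney and at most 3.77% in any WT library. The adenosine 4 bases after it, Nrp1 +1366, has a G before it and did not exceed 1.81% in any WT library, passing 1% in 6 of them. It was above 1% in 1 E861A library, at 6.56% in small intestine replicate 1.

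Dcp2, the catalytic subunit of the mRNA decapping complex, carries a sparse site 6977 bases after its stop codon (position 44584357 of chromosome 18, plus strand). No other listed 3′ UTR position of that strand lay within 402833 bases, and the nearest listed position of any class or strand lay 242119 bases away. The site was edited at 13.1, 14.8 and 6.83% in WT BM, 13.8, 17.4 and 5.46% in WT spleen, and 13.3, 16.4 and 6.16% in WT thymus. In liver the WT libraries had 5.74, 9.33 and 2.96%, and in kidney 6.69, 5.34 and 1.45%. None of these 5 tissues had overlapping genotypes, and the highest E861A value of any tissue was 0.357%. Brain WT libraries had 3.39, 1.77 and 0.430% against 0.0454 to 0.188% in E861A. In small intestine and heart, 1 WT library stood at 6.28 and 9.05%, while the lowest WT libraries had 0 and 0.0325% and overlapped E861A.

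Parg encodes the enzyme that removes poly(ADP-ribose) chains after DNA damage signalling. Its site had no other listed 3′ UTR position of its strand within 5191322 bases, although a listed position of another class or strand lay 9571 bases away. In BM, 2 WT libraries with enough reads had 27.5 and 24.2%, and the E861A libraries had 0.0959, 0 and 0.0650%. In thymus the WT values were 16.8, 22.8 and 0%, and in liver 0.858, 7.88 and 4.49%. In brain the WT libraries had 0, 34.6 and 12.4%, and the E861A libraries had 0.561, 5.60 and 7.63%. The genotypes overlapped there. Outside the brain the highest E861A value was 0.309%, in kidney. The test of brain against the other tissues, given later, called 0 sparse sites.

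**Figure D2:**
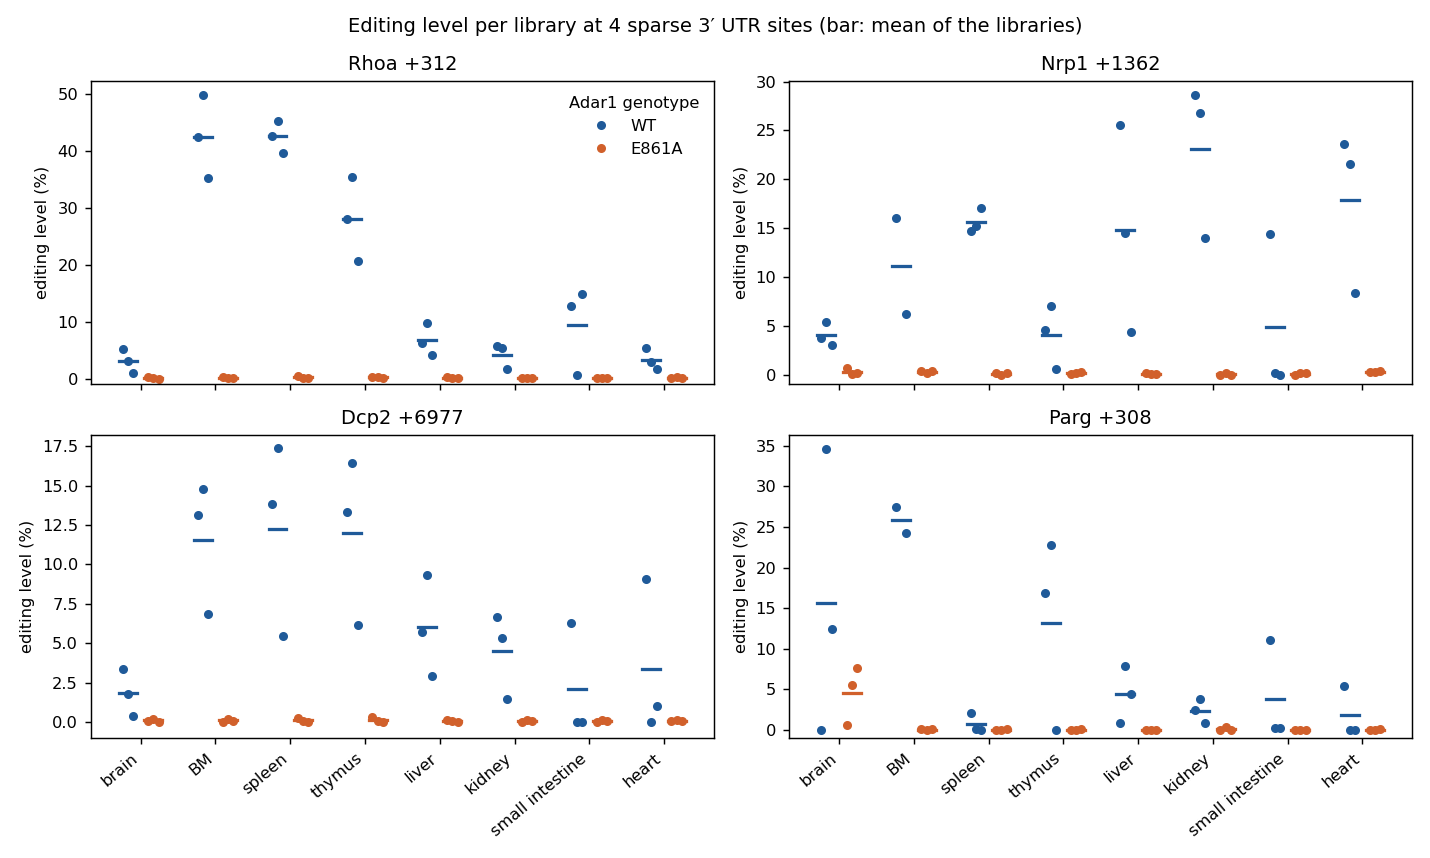
Editing level (%, linear axis from each panel's own scale) of Rhoa +312, Nrp1 +1362, Dcp2 +6977 and Parg +308 in each library, by tissue, for WT (blue) and E861A (orange); bars are the mean of the libraries with more than 100 reads. E861A points lie near 0 in all panels apart from Parg in brain, which reached 7.63%, and Rhoa is highest in BM, spleen and thymus, whereas Nrp1 is highest in kidney.

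Igf2 encodes insulin-like growth factor 2, an imprinted growth factor, and has 5 sparse sites. The one at +546 was edited at 9.66, 14.5 and 11.7% in WT brain against 0.299, 0.403 and 0.227% in E861A. In liver the WT libraries had 38.7, 6.22 and 14.1%, and in kidney 2.84, 22.9 and 13.5%, and all 6 E861A libraries of these tissues were at 0%. Heart WT libraries had 37.3, 0.169 and 24.1%, and thymus WT libraries 4.29, 56.6 and 0.409%, so replicates of 1 group differed by far more than counting error. Spleen was at 0.158 to 0.261% in WT and 0 to 0.368% in E861A. The site at +559, 13 bases further on, had 13.4 and 17.0% in kidney WT replicates 1 and 2, 16.1% in small intestine WT replicate 1 and 9.30% in brain WT replicate 1. It was at 0% in all WT libraries of spleen and thymus. The highest E861A values of these 2 sites were 0.519 and 0.238%.

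Cybasc3, which encodes a cytochrome b561 family protein, and the uncharacterised gene 2900026A02Rik each carry a pair of adjacent sparse adenosines of which 1 was edited more. At 2900026A02Rik +4926 the kidney WT libraries had 2.41, 4.53 and 1.45% and the E861A libraries 0, 0 and 0%. The highest WT value of this site was 14.1%, in small intestine replicate 1, whereas the adjacent adenosine, 1 base after it, did not exceed 0.791% in any WT library. At Cybasc3 +93 the BM WT libraries with enough reads had 30.4 and 13.5%, against 0, 0.164 and 0.486% in E861A, and thymus WT replicate 2 had 18.6%. The adjacent Cybasc3 adenosine reached 6.77% in 1 WT library. Sparse sites formed 16 pairs at most 2 bases apart, and in 8 of them both sites stayed at or below 1% in all WT libraries.

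**Figure D3:**
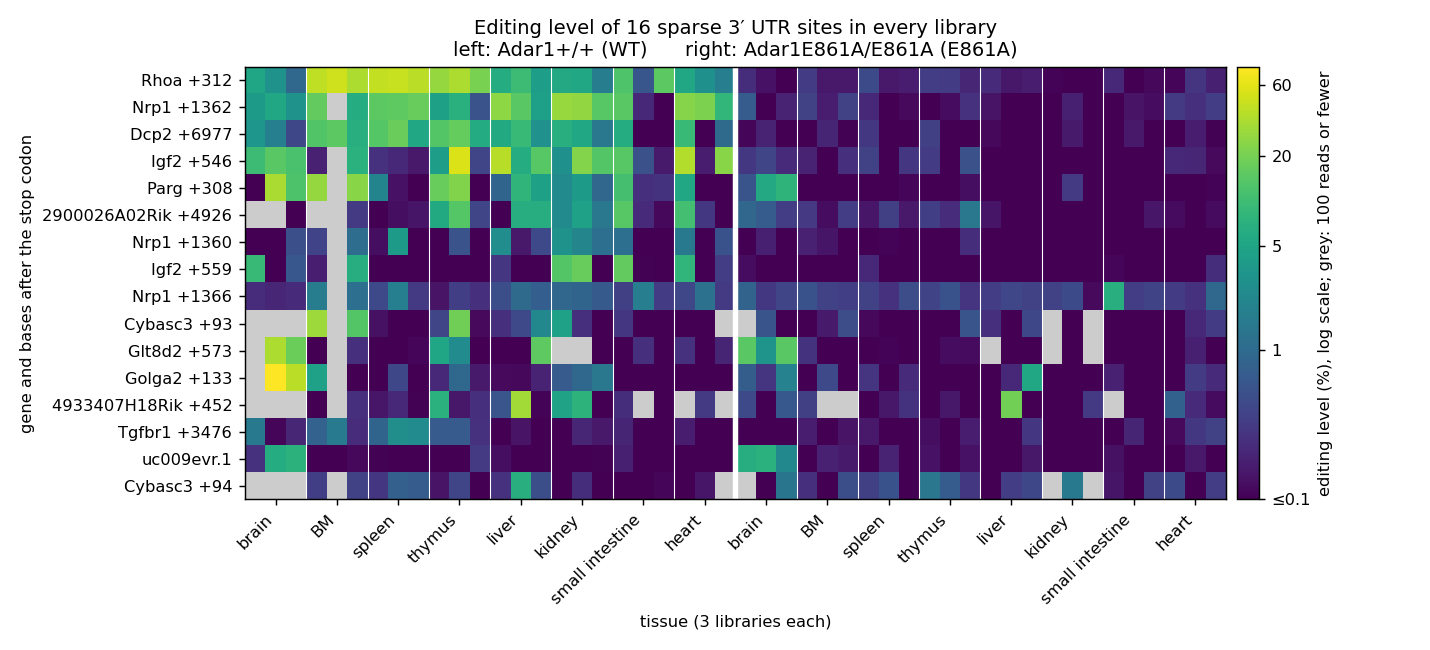
Editing level (%, colour on a log scale, values at or below 0.1% in the darkest shade) of the 16 sparse sites that passed 1% in at least 4 libraries, in every library; each row is 1 site named by gene and bases after the stop codon, columns are 3 libraries per tissue with WT left and E861A right, and grey marks 100 reads or fewer. The row uc009evr.1 is the site at position 3636037. Of the 16 sites, 14 passed 1% in more WT than E861A libraries, and 8 never passed it in E861A.

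Whether editing at sparse sites changed with genotype across the tissues other than brain was asked with limma over 42 libraries, with a level for each tissue and 1 genotype term, on log2((level + 0.01)/(1 − level + 0.01)), where levels are fractions. The offset of 0.01 understates the change of low levels. A site entered when it was covered in at least 3 of 7 tissues and its pooled level was above 0.01 in either genotype, which 11 sparse sites did. Most sparse sites passed this limit through their WT level, which itself favours lower E861A values here and in the fits of single tissues, so the counts are read only beside the share of all sites, which entered by the same limit. Of the 11 sparse sites, 9 were lower in E861A and 0 were higher at a Benjamini-Hochberg adjusted p below 0.05; over all sites of the assay, 302 of 642 tested were lower (47%) and 0 higher (0%). None of the 11 had an unadjusted p below 0.05 in the upward direction, nor did any of all 642 sites. The quasi-binomial model gave 10 lower and 0 higher, beside 454 lower and 17 higher of all 642. The median log2 change was -1.35 over the 11 sparse sites, -0.83 over the 496 dense sites tested and -0.75 over all 642; whether sparse sites differ from the others was not tested. In limma, Rhoa +312 changed by -3.76 (SE 0.359, adjusted p = 1.41e-10), from a mean over tissues of 19.6% in WT to 0.194% in E861A. Its adjusted p ran from 7.87e-22 to 2.07e-05 over the 15 alternatives.

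In the same limma fit Nrp1 +1362 changed by -3.33 (SE 0.350, adjusted p = 1.41e-09), from 13.1 to 0.159%. Dcp2 changed by -2.56 (SE 0.311, adjusted p = 2.88e-08), from 7.39 to 0.113%. Igf2 +546 changed by -2.54 (SE 0.492, adjusted p = 7.35e-05) and Parg by -2.04 (SE 0.388, adjusted p = 6.03e-05). These 4 calls and that of Rhoa held in every alternative run. 2900026A02Rik +4926 changed by -1.35 (adjusted p = 0.00396) and Nrp1 +1360 by -0.68 (adjusted p = 0.00241), and both were called in every alternative in which they were tested. Cybasc3 +93 (SE 0.380, adjusted p = 0.0306) and Igf2 +559 (-0.98, adjusted p = 0.0225) were called in 7 of 14 and 7 of 13 alternatives, with adjusted p up to 0.229 and 0.0803. Glt8d2 +573 (-0.50, adjusted p = 0.145) and 4933407H18Rik +452 (-0.77, adjusted p = 0.217) did not pass; the latter had 31.3% in liver WT replicate 2 and 19.3% in liver E861A replicate 2, and its 21 bases occur at 725 other places of the genome with A and 11 with G.

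**Figure D4:**
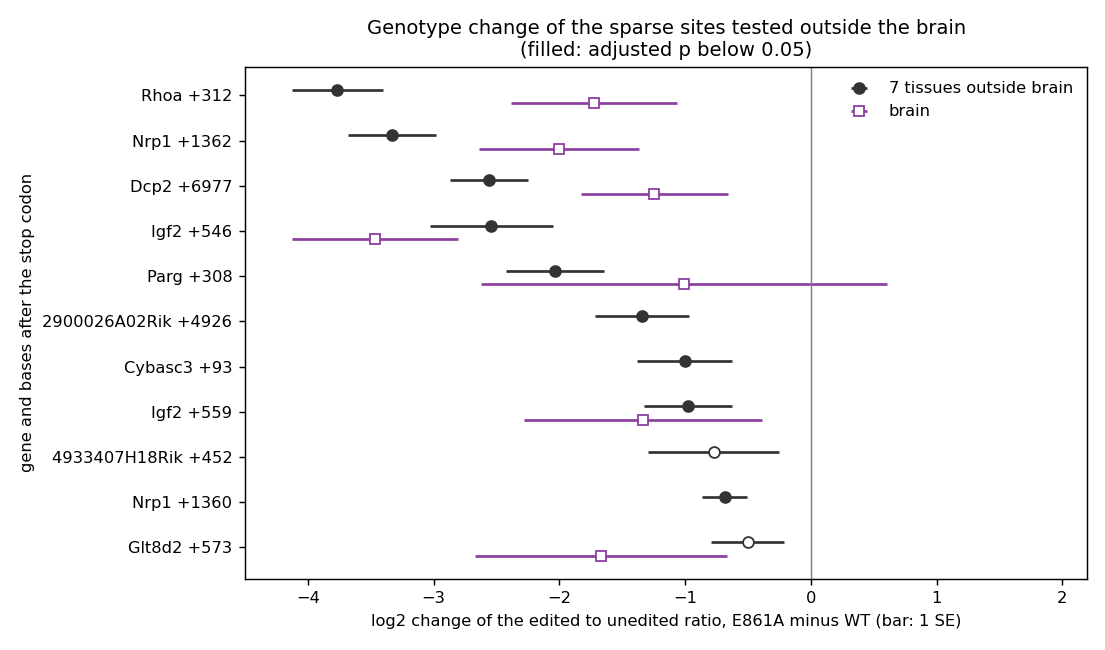
Change of the edited to unedited ratio (log2 scale, E861A minus WT, bars 1 SE) of the 11 sparse sites tested over the 7 tissues outside the brain (circles, filled where the limma adjusted p was below 0.05) and, where tested, in the brain alone (open squares). All circles lie below 0, from -3.76 for Rhoa +312 to -0.50 for Glt8d2 +573, and no brain value passed the threshold.

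Tissue by tissue, 3 libraries against 3, calls were fewer. In BM, limma called 5 of 14 tested sparse sites lower in E861A, beside 27% of the 538 sites tested in that tissue: Rhoa +312 (log2 change -5.95, adjusted p = 0.000424), Parg (-5.10, 0.00128), Dcp2 (-3.60, 0.00218), Cybasc3 +93 (-4.51, 0.00418) and Nrp1 +1362 (-3.26, 0.0131). The BM call of Nrp1 +1362 held in 5 of 11 alternatives, with an adjusted p up to 0.173, and that of Cybasc3 in 9 of 11. In spleen 3 of 6 were lower, beside 8.45% of 284 sites: Rhoa +312 (-5.91, adjusted p = 4.41e-08), Nrp1 +1362 (-4.15, 0.000235) and Dcp2 (-3.61, 0.00157). In kidney 5 of 11 were lower, beside 17.1% of 532 sites: Nrp1 +1362 (-4.83, adjusted p = 0.00172), Igf2 +546 (-3.66, 0.0211), Rhoa +312 (-2.21, 0.0408), Dcp2 (-2.24, 0.0467) and 2900026A02Rik +4926 (-1.88, 0.0481). In liver 3 of 16 were lower, beside 9.75% of 677 sites: Igf2 +546 (-4.36, adjusted p = 0.0333), Nrp1 +1362 (-3.80, 0.0378) and Rhoa +312 (-2.74, 0.0484). In kidney the calls of Rhoa, Dcp2 and 2900026A02Rik held in 4, 3 and 3 of 12 alternatives, and in liver those of Igf2, Nrp1 and Rhoa in 7, 6 and 6 of 13. The kidney calls of Nrp1 +1362 and Igf2 +546 were lost with the quasi-binomial model, which called 0 sparse sites there. Only 1 sparse site was called in kidney on the untransformed level, without WT replicate 2 or without E861A replicate 3. Limma called 0 sparse sites higher in any tissue, and of all sites tested 0.704% in spleen and 0% in each other tissue. At an unadjusted p below 0.05, 0 sparse sites were higher in any tissue. Of all sites, 17 of 808 were higher in brain, 6 of 677 in liver, 3 of 284 in spleen, 1 of 538 in BM and 0 elsewhere. The quasi-binomial model called 0 sparse sites higher, and of all sites 1 of 284 in spleen and 0 elsewhere.

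Limma called 0 sparse sites lower in brain (of 11 tested), thymus (of 11), small intestine (of 11) and heart (of 8), where it called 0% of all sites tested. At an unadjusted p below 0.05, 4 sparse sites were lower in brain (39 of all 808 sites), 3 in thymus (75 of 529), 0 in small intestine (2 of 413) and 1 in heart (21 of 446). The quasi-binomial model called 0 sparse sites lower in these tissues. From the same totals of all sites it called 1 lower in brain, 4 in thymus, 0 in small intestine and 1 in heart. In thymus the count of calls was 7 of 12 when WT replicate 3 was left out, and over all sites it was then 223 of 560. That library had 0.552% at Nrp1 +1362, 0% at Parg and 20.8% at Rhoa +312. The genotypes did not overlap, with E861A the lower, at 7 of 14 tested sparse sites in BM (42.4% of all sites tested there), 4 of 6 in spleen (26.4%), 8 of 11 in kidney (41.9%) and 7 of 16 in liver (31.9%). The same held at 7 of 11 in brain (11.6%), 3 of 11 in thymus (27.4%), 3 of 11 in small intestine (13.1%) and 2 of 8 in heart (10.8%). At no tested sparse site did every E861A library lie above every WT library. The share of all sites in that direction was not counted, and most sparse sites entered through their WT level, so nothing is read from this.

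The number of sparse sites edited above 1%, from pooled reads, was lower in E861A than in WT in each tissue. In WT it was 10 of 87 covered sites in brain, 12 of 107 in BM, 6 of 125 in spleen, 10 of 125 in thymus, 13 of 106 in liver, 10 of 104 in kidney, 8 of 106 in small intestine and 8 of 121 in heart. In E861A it was 5 in brain, 4 in liver, 3 in small intestine, 2 in BM, 1 each in thymus and kidney, and 0 in spleen and heart. Of the sites edited in WT, those still above 1% in E861A were 4 of 10 in brain (40.0%, Wilson 95% interval 16.8 to 68.7), 1 of 13 in liver (7.69%, 1.37 to 33.3) and 0 in the 6 other tissues. Choosing sites by their WT level itself favours lower E861A values, and sites above 1% in E861A alone do not enter this share. There were 3 such sites each in liver and small intestine, 2 in BM, 1 each in brain, thymus and kidney, and 0 in spleen and heart. The brain share was 14.3% with more than 500 reads and 25.0% without WT replicate 2 or without WT replicate 3, and the liver share was 0% without WT replicate 2, without E861A replicate 2 or with neighbours counted within 100 bases and 16.7% without E861A replicate 3. In small intestine it was 33.3% without WT replicate 1 and 11.1% without WT replicate 3, and in thymus 10.0% without E861A replicate 2. Dense sites gave 70.2% in brain, 30.2% in liver, 25.7% in kidney and 3.44 to 10.9% in the other tissues. The share of covered sites edited in WT was 4.80 to 12.3% for sparse sites and 4.36 to 17.0% for dense sites across tissues. These shares are descriptions, and the differences between sparse and dense sites were not tested.

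Over the sparse sites edited and read in all 6 libraries of a tissue, mean levels are given as a description. Most of these sites entered by being above 1% in WT alone, as did all 6 in spleen and all 8 in heart, so the choice of sites itself favours a lower E861A mean. In spleen it went from 12.5% ± 1.83 (SD, n = 3) to 0.162% ± 0.0554 over 6 sites, and in BM from 14.0% ± 2.09 to 0.707% ± 0.763 over 4 sites. E861A minus WT in BM was -13.3 percentage points, and -8.40 without WT replicate 2. Kidney went from 6.14% ± 2.76 to 0.152% ± 0.137 over 11 sites, liver from 4.97% ± 1.98 to 0.855% ± 0.822 over 15, and brain from 5.99% ± 2.55 to 1.41% ± 0.364 over 8. Thymus (9.05% ± 7.11 to 0.297% ± 0.140, 11 sites), heart (6.98% ± 4.92 to 0.156% ± 0.0399, 8 sites) and small intestine (4.07% ± 5.12 to 0.469% ± 0.561, 9 sites) had wide WT spreads. Small intestine WT libraries had means of 9.93, 0.514 and 1.76%, and the highest E861A library, at 1.12%, overlapped them. E861A minus WT there was -3.60 percentage points, and -5.38 to -1.83 with 1 replicate left out. Dense sites in brain went from 10.2% ± 0.802 to 7.74% ± 0.303 over 374 sites, so E861A minus WT was -4.58 percentage points for the sparse mean there and -2.44 for the dense mean; the sparse value was -13.1 without WT replicate 1 and -2.40 without WT replicate 2.

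The brain held the highest WT mean of any sparse site with at least 2 covered libraries. Golga2, which encodes the Golgi matrix protein GM130, had 78.6 and 40.0% in brain WT replicates 2 and 3 (238 and 110 reads) and 0.727, 0.273 and 1.94% in E861A. Its limma change was -6.37 (SE 1.03, adjusted p = 0.130), which did not pass the threshold, and outside the brain its WT values stayed between 0 and 4.59%. Igf2 +546 had the same adjusted p, 0.130, with a change of -3.47 (SE 0.658). Glt8d2, a putative glycosyltransferase gene, had 35.4 and 17.6% in 2 WT brain libraries and 14.4, 3.18 and 14.4% in E861A (adjusted p = 0.701 by limma). An adjacent pair of adenosines in uc009evr.1, which overlaps the Mboat7 gene in GENCODE M1 outside its annotated 3′ UTR, passed 1% in brain alone. There the site at position 3636036 of chromosome 7 had 2.50, 5.84 and 1.85% in WT and 0.274, 0.792 and 0.268% in E861A. The site at position 3636037, 1 base before it on the transcript strand, had 0.257, 6.28 and 7.42% in WT and 6.37, 7.22 and 2.27% in E861A. The genotypes were apart at the first of these and overlapped at the second, and limma called neither (adjusted p = 0.690 and 0.854).

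The 4 sites above 1% in both genotypes of the brain were Golga2 +133, Glt8d2 +573, Parg and the uc009evr.1 site at 3636037. Among the sites read in all 6 brain libraries, the highest E861A means were 5.28% ± 2.65 at this uc009evr.1 site and 4.60% ± 3.64 at Parg, followed by Ehd4 at 0.737% ± 1.04. Whether the genotype change in brain differed from that in the other tissues was tested by limma on 8 sparse sites over all 48 libraries. None passed; 1, Rhoa +312, had an unadjusted p below 0.05 with a less negative change in brain (difference 2.04, SE 0.959, adjusted p = 0.175). Of all 431 sites tested, 78 had an unadjusted p below 0.05 with a less negative change in brain, and 31 with a more negative one. Past the adjusted threshold, 2.32% of them had a more negative and 3.94% a less negative change in brain. On the untransformed level 1 of the 8, Glt8d2 +573, passed (adjusted p = 0.00829), and of all 431 sites 40 had a more negative and 25 a less negative change in brain.

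Outside the brain, E861A editing above 1% was seen at 30 sparse sites, at 28 of them in a single library. The other 2, the adenosine next to Cybasc3 +93 and a site of Rbm41, passed 1% in 2 libraries each and reached 1.49 and 1.46%. The highest E861A values outside the brain were 19.3% at 4933407H18Rik +452 in liver replicate 2, 6.56% at Nrp1 +1366 in small intestine replicate 1, 5.71% at a Sdc3 site in BM replicate 3 and 5.55% at Golga2 +133 in liver replicate 3. In each case the other libraries of the group with enough reads were at or below 0.394%. In the brain, a Tbc1d16 site had 31.6% in E861A replicate 3 (95% Wilson interval 28.2 to 35.2, 684 reads), with the other E861A brain libraries at or below 0.110%. Slc9a8, a sodium/proton exchanger gene, had 9.87% in brain E861A replicate 3 (95% Wilson interval 7.87 to 12.3, 699 reads) and at most 0.161% in the other E861A brain libraries. No other listed 3′ UTR position of its strand lay within 677035 bases of this site, and the nearest listed position of any class or strand lay 6136 bases away. Counted over both genotypes, 29 groups at 20 sites had 1 library above 5% and all others at or below 1%, 21 of these groups in WT and 8 in E861A.

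Bases around the sites were read from the genome and are given as a description. Of the 129 sparse sites, 13 (10.1%) have T immediately before and G immediately after the adenosine, the triplet TAG on the transcript strand. Among 27 sparse sites above 1% in WT of at least 1 tissue, TAG was found at 7 (25.9%), and among the other 102 at 6 (5.88%). For dense sites the shares were 11.3% of 972 edited and 4.57% of 3171 not edited, and 6.15% of all 4143. Rhoa +312, Dcp2, Parg and Golga2 +133 carry it, and 5 of the 13 TAG sites passed 10% in a WT library, against 9 of the other 116. A G before the adenosine was found at 7.41% of edited and 22.5% of other sparse sites, and at 14.0% of edited and 24.5% of other dense sites. The best pairing of the 101 bases around a site with the 1000 bases on either side, computed with RNAduplex, had a median of -67.7 kcal/mol for sparse and -75.2 kcal/mol for dense sites. It was -72.9 kcal/mol for the edited sparse sites and -84.8 kcal/mol for the edited dense sites. The quartiles of the dense sites were -94.4 and -63.2 kcal/mol, and the named sites lay on both sides of the dense median. Nrp1 +1362 had -50.2, Rhoa +312 -55.9, Parg -60.9 and Dcp2 -72.9 kcal/mol, whereas 2900026A02Rik +4926 had -75.9, Igf2 +546 -80.1, Glt8d2 +573 -80.9, Cybasc3 +93 -82.4 and Golga2 +133 -96.7 kcal/mol.

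By position, 119 of the 129 sites lie in an annotated GENCODE M1 3′ UTR, 5 to 7555 bases after a stop codon with a median of 1318, and 10 do not. Another gene lies on the opposite strand at 15 sites. At 19 sites the 21 bases occur elsewhere in the genome with A or G at the site. For 7 sites no other listed 3′ UTR position lay within 100000 bases on the same strand. Of these, the sites in Dcp2 and Parg passed 1% in 6 or more WT libraries. That in Tgfbr1, a TGF-β receptor gene, did so in 4. Tgfbr1 was highest in spleen, with 0.855, 2.69 and 2.50% in WT and 0.157, 0.0819 and 0% in E861A (limma log2 change -1.45, adjusted p = 0.221). Those in Surf4, Leprotl1 and Best1 did not exceed 0.461% in any WT library, and that in Slc9a8 reached 1.06%. The nearest listed position of any class or strand lay 5231 bases from the Surf4 site, 29999 from Leprotl1 and 71 from Best1.

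Grouped by the textbook role of their genes, most sparse sites fell in no list. Genes of vesicle traffic and small GTPases held 9 sites, 5 of them above 1% in a WT library (in Rhoa, Golga2, Tbc1d15 and Tbc1d16), and Rhoa +312 was the only one tested outside the brain. Genes of neurons and axons held 12 sites, 4 above 1% in WT (in Nrp1 and Mtap6), and the 2 tested outside the brain, both in Nrp1, were lower. Genes of RNA binding, export and decay held 7 sites, 2 above 1% (in Dcp2 and Rbm41), with Dcp2 tested and lower. Genes of DNA repair and division held 2 sites, of which Parg was edited, tested and lower. The single site in an immune gene did not pass 0.138% in WT. The other 94 sites, in 50 genes, included 30 above 1% in a WT library, and 4 of their 6 sites tested outside the brain were lower. Beside these counts, 44 of all 129 sparse sites passed 1% in a WT library and 47% of all sites tested outside the brain were lower, so nothing is read from the lists.

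At the edges of the rule, with 2 neighbours within 50 bases, the last count inside the rule, 11 of 49 sites (22.4%) were above 1% in WT of a tissue, and with 3 neighbours 9 of 59 (15.3%) were. The share was 24.1% with 0 neighbours, 17.6% with 1, 14.1% with 4, 19.8% with 5, 18.3% with 6 and 24.0% with 7 or more. The highest WT tissue means with 2 neighbours were 59.3% (Golga2), 23.1% (Nrp1) and 20.5% (Igf2), and with 3 neighbours 12.1% (Mgat4a), 4.02 and 2.96% (both Pank3). The least covered sparse sites lay in 2310022A10Rik, Ids and Nol10, the last with at most 270 reads, and the best covered position left out had 64 (Hmg20b). Ids, which encodes a lysosomal sulfatase, had more than 100 reads in 1 library only, spleen WT replicate 2, at 85.1%. Over all WT libraries 392 of its 598 reads carried G (65.6%, Wilson 95% interval 61.7 to 69.3) and in E861A 6 of 7 did. Its 21 bases occur at 206 other places of the genome with A and 709 with G, so the genotypes cannot be compared at this site.

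The highest levels of all belonged to uc012ewt.1, outside any annotated 3′ UTR, where few brain libraries had enough reads. At position 4420279 of chromosome 7, brain WT replicate 3 had 99.3%, brain E861A replicate 2 had 99.7% and brain E861A replicate 3 had 0.130%. At position 4419985, brain E861A replicates 2 and 3 had 84.3 and 51.5%, and no brain WT library had more than 100 reads. Outside the brain the tissue means of the first position were at most 0.117%. The 21 bases around it occur at 22 other places of the genome with A and 1 with G, and Eps8l1 lies on the opposite strand, so their part in these levels was not tested.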

How the data were processed

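Known A-to-I sites were amplified from cDNA by mmPCR-seq in 48 libraries. Per the submitters' processing notes the reads were mapped to mm9 with STAR and handled with SAMtools, versions not given in the sources used here. The authors deposited, for each library and listed site, the read count covering the site, the count carrying G, and their ratio as a fraction, with no normalization; levels were recomputed from the counts. The authors' combined tables, equal to these levels at more than 100 reads, were not used. The sparse sites, role lists and tests were chosen with earlier results of these data known.

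Within a tissue, a site was tested when more than 100 reads covered it in at least 2 of 3 libraries of both genotypes and its pooled level passed 0.01 in either genotype. Levels were compared as log2((level + 0.01)/(1 − level + 0.01)) with limma 3.58.1 (lmFit, eBayes with trend) in R 4.3.3, and p-values were adjusted by Benjamini-Hochberg over all sites tested. The fits were tested on simulated data. Sites to be named were the largest falls and rises past the threshold, the highest brain levels, the sites edited in most tissues, genes with most tested sites and those nearest the thresholds; other sites were named after their values were seen. Sequence context came from mm9 and GENCODE M1, and pairing energies from RNAduplex 2.7.2. Alternatives changed the read minimum (50 or 500), the edited limit (0.05), the offset (0.001), the scale, the model (quasi-binomial), the neighbour window (100 bases), a replicate block, a random block for genotype with replicate number and each replicate left out. The results of 1 gene, and of the role list that rests on it, are not reported here.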

Additional observations from a re-analysis of the deposited data

How the results depend on the processing

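Of 318 values recomputed under an alternative for 27 results, 48 moved. Counts and shares could not turn direction. Only the mean level differences could, and 0 did. Most sites in those means entered through their WT level, which favours that direction. A count was taken as moved past 1.5 times, a mean difference past the replicate SDs of both genotypes combined and a share past its Wilson interval, so the 270 other values include wide shifts where replicates spread. The number of sparse sites called lower moved as follows, with the share of all sites called lower in brackets. On the untransformed level it was 1 of 14 in BM (2.04%), 1 of 6 in spleen (0.704%), 0 of 16 in liver (0%) and 1 of 11 in kidney (4.51%), and 1 site differed between brain and the other tissues. With the quasi-binomial model it was 3 of 14 in BM (21.4%), 1 of 16 in liver (5.76%) and 0 of 11 in kidney (4.32%). With more than 500 reads it was 1 of 11 in thymus (0.449%) and 3 of 7 in kidney (18.5%). With an edited limit of 0.05 it was 1 of 5 in thymus (1.18%), 2 of 3 in kidney (42.9%) and 5 of 5 outside the brain (79.1%). With an offset of 0.001 it was 2 of 11 in thymus (3.59%) and 5 of 16 in liver (13.1%). With the replicate number as a block it was 0 of 16 in liver (0%) and 2 of 11 in kidney (11.3%), and no other count moved by over 1.5 times. Within tissues, 24 correlations of deviations by replicate number ran from -0.12 to 0.24, and in 0 of 8 tissues were all 3 above 0.1. With 3 libraries per group, these cannot settle whether replicate numbers pair libraries within or across tissues. With the edited limit of 0.05 the mean level, E861A minus WT in percentage points, was -7.36 in brain, -26.9 in BM (also with more than 500 reads), -23.3 in spleen, -9.23 in liver, -15.4 in kidney, -18.9 in heart, -15.8 in thymus and -5.68 in small intestine; fewer sites entered these means.

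Each replicate was left out in turn, and the number of sparse sites called lower is given with the share of all sites in brackets. It was 2 to 5 in BM (19.0 to 40.0%), 3 in spleen (5.09 to 26.7%) and 0 to 7 in thymus (0 to 39.8%). In liver it was 0 to 6 (2.54 to 18.6%), in kidney 1 to 9 (11.4 to 36.9%) and outside the brain 6 to 9 (32.9 to 49.7%). In brain (0 to 1.12%), small intestine (0 to 0.581%) and heart (0%) it was 0. The 2 calls in BM, without WT replicate 1 or without WT replicate 3, were of 4 sparse sites tested. The largest counts came without WT replicate 3 in thymus and kidney and without WT replicate 1 in liver, where all sites gave 223 of 560, 200 of 542 and 123 of 662 lower. The mean level difference ran from -13.1 to -2.40 in brain, -14.7 to -8.40 in BM, -13.8 to -9.07 in spleen, -11.1 to -6.02 in thymus, -5.61 to -3.56 in liver, -8.09 to -4.68 in kidney, -5.38 to -1.83 in small intestine and -8.76 to -5.97 in heart. An alternative chosen after seeing the data, outside the brain without thymus, small intestine and heart, called 8 of 12 sparse sites lower and 0 higher, with 245 of 611 sites lower in all. The cause of these shifts was not tested.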
